A study of Mus musculus with 6 samples.

Results

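Chemokine receptors are the surface molecules through which T cells read chemokine gradients, and the 9 receptor genes described here, Ccr1, Ccr2, Ccr4, Ccr6, Ccr7, Cxcr3, Cxcr4, Cxcr5 and Cxcr6, were taken by name from a table of 55536 genes. Each name matched 1 gene, and all 9 passed the filter on low counts. The libraries came from CD4+ T cells of C57BL/6 mice that carry the 2D2 transgene, a T cell receptor for a myelin peptide (MOG). In HDAC1-cKO cells (2D2-Hdac1fl/fl-Cd4-Cre+) the histone deacetylase gene Hdac1 is deleted by Cre, which the Cd4 promoter drives from the thymus on, and WT cells (2D2-Hdac1fl/fl-Cd4-Cre-) carry the same floxed alleles without Cre, so that loss of Hdac1 and presence of Cre cannot be told apart. Donor cells (CD45.2+) were injected into CD45.1+ recipients, which keep their own T cells. The recipients were immunised in the footpad 18 hours later with MOG peptide in complete Freund's adjuvant. After another 4 days, 500 donor cells per library were sorted from popliteal lymph nodes pooled from 2 mice, with 3 biological replicates per genotype.

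Chemokine receptors couple to inhibitory G proteins, which turn ligand binding into integrin activation and directed movement. Naive T cells carry CCR7, whose ligands CCL19 and CCL21 are made in the T cell zone of lymph nodes and bring the cells in and hold them there. Activated T cells lower CCR7 and gain receptors such as CXCR3, CXCR6, CCR2, CCR4 and CCR6, which guide effector cells to inflamed tissue, while follicular helper cells gain CXCR5 and move towards CXCL13 in the B cell follicle. The comparison asked whether the lack of HDAC1 shifts the balance between these effector-homing receptors and the lymph node receptor Ccr7 while the cells are still in the draining node.

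Members of the set that stood lowest in HDAC1-cKO relative to WT, Ccr1, Ccr2 and Cxcr6, lie within 307 kb on chromosome 9. In GRCm38 coordinates Cxcr6 spans chr9:123806475-123811760 on the plus strand, Ccr1 spans chr9:123962124-123968692 on the minus strand and Ccr2 spans chr9:124101950-124113557 on the plus strand. Cxcr5 and Ccr4 are on the same chromosome but far away, and Ccr6, Ccr7, Cxcr3 and Cxcr4 are on chromosomes 17, 11, X and 1. The 250 bases before the transcription start, taken from RefSeq (GRCm38.p6), are shown for Ccr1, Cxcr6 and the first start of Ccr6 as examples of windows with a motif match. Capitals mark the letters of the motifs searched on both strands, which were TGTGGT for RUNX factors, TGANTCA for AP-1, GGTGTGA for T-box factors and TTCNNNGAA for STAT factors.
Ccr1, chr9:123968693-123968942, minus strand: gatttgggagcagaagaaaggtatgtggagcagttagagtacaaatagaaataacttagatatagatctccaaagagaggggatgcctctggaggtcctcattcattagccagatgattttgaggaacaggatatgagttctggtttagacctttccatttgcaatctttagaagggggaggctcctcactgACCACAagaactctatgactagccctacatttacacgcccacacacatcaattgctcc
Cxcr6, chr9:123806227-123806476, plus strand: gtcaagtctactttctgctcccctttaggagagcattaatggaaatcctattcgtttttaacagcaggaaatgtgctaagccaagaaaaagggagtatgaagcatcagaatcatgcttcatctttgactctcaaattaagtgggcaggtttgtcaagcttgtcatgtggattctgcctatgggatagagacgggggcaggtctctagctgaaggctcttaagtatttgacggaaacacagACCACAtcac
Ccr6, chr17:8235793-8236042, plus strand: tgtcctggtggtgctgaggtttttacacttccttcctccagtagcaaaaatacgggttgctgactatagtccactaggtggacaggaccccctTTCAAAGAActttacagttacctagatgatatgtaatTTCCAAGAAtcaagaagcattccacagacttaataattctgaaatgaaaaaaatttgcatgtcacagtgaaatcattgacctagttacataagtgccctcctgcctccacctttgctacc
In the Ccr1 and Cxcr6 windows the capitals are the RUNX letters read on the opposite strand, 58 to 53 bases before the start of Ccr1 and 10 to 5 bases before that of Cxcr6, and in the Ccr6 window they are a pair of STAT matches. RefSeq promoters were matched for 7 of the 9 receptors. The RUNX letters were found in 3 of them (Ccr1, Cxcr3 and Cxcr6) and in 14% of 32851 promoter windows of the same length, the AP-1 letters in Ccr4 (6.75% of all windows), the STAT letters in Ccr6 (7.02%), and the T-box letters in 0 of the 7 (3.33%). Ccr2 and Cxcr4, whose levels separated by genotype as those of Ccr1 and Cxcr6 did, held none of the letters searched, and the levels of Cxcr3, which holds the RUNX letters, overlapped. The matches describe letters in short windows and were not tested against the expression values.

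The total count was 19956153 to 36307610 in HDAC1-cKO libraries and 39036751 to 55900237 in WT libraries. Hdac1 itself averaged 15.8 ± 1.32 CPM in the 3 HDAC1-cKO libraries, against 238 ± 5.06 CPM in the 3 WT libraries (SD), where CPM is the count scaled to a common library total. HDAC1-cKO replicate 2 stood apart: the GC content of 8330 genes went with how far a gene in that library lay from its 6-library mean (Pearson r 0.59 across genes, which are no replicates), against r of -0.22 and -0.07 in the other HDAC1-cKO libraries and -0.28 to -0.08 in WT. The receptors' transcripts differ in GC content, with 39.1% in Ccr1, 39.4% in Ccr2 and 43.1% in Cxcr6 against 50.5% in Ccr6, 52.5% in Cxcr5, 53.5% in Ccr7 and 54.2% in Cxcr3. T cell markers were present in every library, with 9 of 9 tested and a summed level of 6073 to 7235 CPM in HDAC1-cKO, against 6974 to 8333 CPM in WT. Of these markers 1 passed the threshold, Cd3e, a chain of the CD3 complex, which fell to 43.6 ± 6.61 CPM in HDAC1-cKO, against 117 ± 16.2 CPM in WT (SD, n = 3 each, edgeR adjusted p = 0.0102). In all, 7 of the 9 markers had a negative log2 fold change (50.3% of all genes did). Cd3e, Cd3g, Cd5 and Trac were lower without overlap (11.8% of all genes were), and the remaining markers overlapped between genotypes. The Cd3e call ended without HDAC1-cKO replicate 1, HDAC1-cKO replicate 3 or WT replicate 3 (edgeR adjusted p up to 0.0716). B cell markers, 6 of 6 tested, summed to 195, 295.4 and 137 CPM in HDAC1-cKO replicates 1, 2 and 3 and to 70.0, 155 and 131 CPM in WT replicates 1, 2 and 3. Myeloid and dendritic cell markers, 8 of 13 tested, summed to 126 to 345 CPM in HDAC1-cKO, against 62.2 to 263 CPM in WT, mostly through Cd74, while Cd14, Csf1r and Flt3 had a count of 0 in every library. Of 5 NK cell markers Ncr1, Klra4 and Klra8 were at 0, and the summed level, mostly of Nkg7, was 130 to 298 CPM in HDAC1-cKO, against 149 to 329 CPM in WT. The CD8 T cell markers, 2 of 2 tested, summed to 65.7 to 72.3 CPM in HDAC1-cKO, against 45.4 to 59.4 CPM in WT, nearly all of it Cd8b1.

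None of the 9 receptors passed the threshold between HDAC1-cKO and WT over all genes, although 8 of the 9 had a negative log2 fold change (50.3% of all genes did) and their median was -0.42, against -0.002 over all 15519 genes tested. The test was edgeR's quasi-likelihood test with Benjamini-Hochberg adjustment, and 306 genes (1.97%) had an adjusted p under 0.05, 0.979% higher and 0.992% lower in HDAC1-cKO. At an unadjusted p under 0.05 stood 4 receptors, namely Ccr1, Cxcr6 and Ccr2 lower and Ccr7 higher, against 17.0% of all genes, 8.39% lower and 8.62% higher. The CPM of the genotypes did not overlap for 5 receptors, with Ccr1, Ccr2, Cxcr4 and Cxcr6 lower and Ccr7 higher in HDAC1-cKO, as was also the case for 24.6% of all genes (11.8% lower and 12.7% higher). In bulk libraries fewer cells with a receptor and less RNA per cell cannot be told apart.

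The calls on Ccr1, Ccr2 and Cxcr6 depended on the test. Of 17 alternatives to this fit Cxcr6 passed in 10, Ccr1 in 9, Ccr2 in 6 and Ccr7 in 1, and the other receptors in 0. Ccr1, Ccr2 and Cxcr6 all passed lower with DESeq2 (4.29% of all genes lower), with limma-voom (5.28%), with a filter of 10 CPM (2.69%), with offsets for GC content (1.59%) and with limma on log2(FPKM + 1) (1.20%). The 10 CPM filter needs that level in 3 libraries, and Ccr1 met it only through WT. Under that filter a call on Ccr1 could only be lower, so it is no separate support. Ccr1 and Cxcr6 passed without a filter (0.941%), without robust estimation in edgeR (1.08%), with counts thinned to 1 total (1.45%) and with limma on log2(FPKM + 0.1) (1.25%). Ccr2 and Cxcr6 passed without HDAC1-cKO replicate 2 (2.28%), also when the GC offsets were added (2.26%). Ccr7 passed higher with DESeq2 (4.50% of all genes higher), with an adjusted p of 0.0434.

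**Figure D1:**
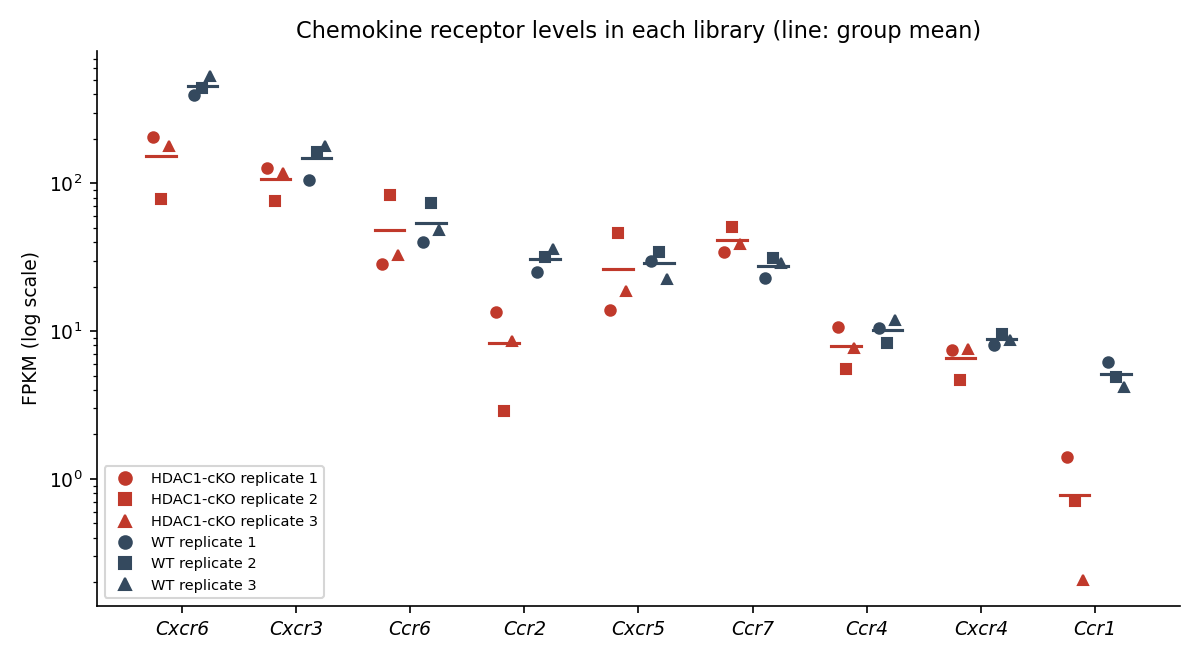
Levels of the 9 receptors in each library, as deposited FPKM on a log axis, ordered by their WT mean. Points are single libraries, with HDAC1-cKO in red to the left of WT in dark blue, and lines are group means. Cxcr6, Ccr2, Ccr1 and Cxcr4 have each HDAC1-cKO library below every WT library, Ccr7 is higher, and HDAC1-cKO replicate 2 (squares) is the highest HDAC1-cKO library for Ccr6, Cxcr5 and Ccr7 and the lowest for Cxcr6, Cxcr3, Ccr2, Ccr4 and Cxcr4.

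Levels per transcript length, as the FPKM the authors deposited, placed Cxcr6 first and Ccr1 last in both genotypes. In HDAC1-cKO the order of means was Cxcr6 (154 FPKM), Cxcr3 (107), Ccr6 (48.3), Ccr7 (41.2), Cxcr5 (26.3), Ccr2 (8.33), Ccr4 (7.95), Cxcr4 (6.57) and Ccr1 (0.774 FPKM). In WT it was Cxcr6 (457 FPKM), Cxcr3 (148.5), Ccr6 (54.2), Ccr2 (31.0), Cxcr5 (28.9), Ccr7 (27.7), Ccr4 (10.2), Cxcr4 (8.77) and Ccr1 (5.08 FPKM). Neighbours in the HDAC1-cKO order had overlapping libraries except Cxcr5 and Ccr2, and Cxcr4 and Ccr1. In WT the neighbours Ccr2 and Cxcr5, Cxcr5 and Ccr7, and Ccr4 and Cxcr4 overlapped and the others did not. Ccr2 thus held the sixth place in HDAC1-cKO and the fourth in WT, and Ccr7 the fourth in HDAC1-cKO and the sixth in WT. Of the summed FPKM of the 9 receptors, Cxcr6 took 46.3, 22.5 and 43.5% in HDAC1-cKO replicates 1, 2 and 3, against 61.7, 55.2 and 61.2% in WT. Ccr7 took 7.72, 14.6 and 9.39% in HDAC1-cKO and 3.56, 3.92 and 3.30% in WT. Shares without overlap were lower in HDAC1-cKO for Cxcr6, Ccr1 and Ccr2 and higher for Ccr7, Cxcr3 and Cxcr4. Since Cxcr6 is most of the sum in WT, the other shares depend on it, and a higher share is no separate measure of a gene's level.

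Cxcr6, the receptor for CXCL16 on effector and tissue-resident T cells, had a fitted level in HDAC1-cKO of 33.8% of that in WT. It stood at 401, 155 and 350 CPM in HDAC1-cKO replicates 1, 2 and 3, against 781, 858 and 1038 CPM in WT. Every HDAC1-cKO library was below the lowest WT library, and HDAC1-cKO replicate 2 was the lowest of all. The log2 fold change was -1.56 ± 0.32 (SE, edgeR adjusted p = 0.0526). With HDAC1-cKO replicate 2 left out it was -1.26 and passed the threshold (edgeR adjusted p = 0.0103), and without any 1 other library it lay between -1.83 and -1.45 and did not pass (edgeR adjusted p from 0.0940 to 0.171). With offsets for the GC trend of the single libraries it was -1.48 (edgeR adjusted p = 0.0253). The 3 genes whose profile over the 6 libraries was most like that of Cxcr6, out of 8332 genes with a mean of at least 10 CPM, were Il18rap, which encodes part of the receptor for IL-18, Gm2682 and P2ry10, a lysophospholipid receptor. Their centred log2 CPM differed from that of Cxcr6 by a root mean square of 0.19, 0.27 and 0.27.

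Ccr2, the receptor for CCL2 on monocytes and effector T cells, also stood lower in each HDAC1-cKO library than in any WT library. Its level was 92.4, 19.7 and 59.1 CPM in HDAC1-cKO replicates 1, 2 and 3, against 173, 216 and 245 CPM in WT. HDAC1-cKO replicate 2 was again the lowest. The log2 fold change was -1.89 ± 0.47 (SE, edgeR adjusted p = 0.0849). It was -1.49 without that library and then passed (edgeR adjusted p = 0.0234), it did not pass without any 1 other library (edgeR adjusted p up to 0.240), and it was -1.77 and passed with the GC offsets (edgeR adjusted p = 0.0436). Of the 50-base stretches of Ccr2 transcripts 2.2% also occur in other genes, so that the split of these reads is uncertain.

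Ccr1, the receptor for CCL3 and CCL5, had the largest fold change of the 9 receptors and the lowest level. It stood at 4.05, 2.03 and 0.588 CPM in HDAC1-cKO replicates 1, 2 and 3, which are 132, 76 and 12 reads, against 17.7, 14.1 and 11.9 CPM in WT, which are 907, 775 and 453 reads. The genotypes did not overlap, and here HDAC1-cKO replicate 3, the library with the smallest total, was the lowest. The log2 fold change was -2.68 ± 0.54 (SE, edgeR adjusted p = 0.0525), or 15.6% of the WT level. Without any 1 library it lay between -3.41 and -2.26 and did not pass (edgeR adjusted p from 0.0679 to 0.160), while with the GC offsets it was -2.43 (edgeR adjusted p = 0.0492). Ccr1 and Ccr2 are also receptors of monocytes. Of the 8 tested myeloid and dendritic cell markers 6 had a negative log2 fold change (50.3% of all genes did). Their median was -0.83, against -0.002 over all genes. The threshold was passed by 0, and all 8 overlapped between genotypes. Lyz2 was the lowest at -2.24, with 0.981, 3.75 and 2.70 CPM in HDAC1-cKO, against 2.03, 22.6 and 10.4 CPM in WT. H2-Ab1 and Cd74 were positive, at 0.54 and 0.39. The part of myeloid and dendritic cells in the Ccr1 and Ccr2 levels was not tested.

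Cxcr3, Ccr4 and Ccr6, which guide effector cells as well, had levels that overlapped between genotypes. Cxcr3, the receptor for the interferon-induced ligands CXCL9 and CXCL10, stood at 225, 134 and 207 CPM in HDAC1-cKO replicates 1, 2 and 3, against 184, 284 and 311 CPM in WT. The ranges overlapped because WT replicate 1 lay below 2 of the HDAC1-cKO libraries, and the log2 fold change was -0.46 ± 0.24 (SE, edgeR adjusted p = 0.394). Ccr4, the receptor for CCL17 and CCL22, stood at 31.5, 16.4 and 22.5 CPM in HDAC1-cKO and 30.9, 24.4 and 34.6 CPM in WT, again with overlapping ranges and HDAC1-cKO replicate 2 lowest. Ccr6, the receptor for CCL20 on Th17 cells, stood at 55.3, 163 and 63.8 CPM in HDAC1-cKO and 78.4, 143 and 93.3 CPM in WT. HDAC1-cKO replicate 2 was the highest library of all for Ccr6, and the other HDAC1-cKO libraries were the lowest. The log2 fold change of Ccr6 was therefore -0.16 ± 0.41 (SE, edgeR adjusted p = 0.897) with all libraries and -0.83 when HDAC1-cKO replicate 2 was left out (edgeR adjusted p = 0.120). Without that library Cxcr3 and Ccr4 differed by -0.28 and -0.16 on the log2 scale.

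Among the receptors that do not lead cells to inflamed tissue, Ccr7 stood higher and Cxcr4 lower in HDAC1-cKO, and Cxcr5 did not separate. Ccr7 stood at 68.5, 102.5 and 77.3 CPM in HDAC1-cKO replicates 1, 2 and 3, against 46.1, 62.4 and 57.4 CPM in WT. Every HDAC1-cKO library was above the highest WT library. The log2 fold change was 0.58 ± 0.18 (SE, edgeR adjusted p = 0.153), and it was 0.39 with HDAC1-cKO replicate 2 left out (edgeR adjusted p = 0.191). The most similar profiles to that of Ccr7 were those of Pdlim7, 1700037H04Rik and 1500011B03Rik, with root mean square differences of 0.05, 0.06 and 0.08 in centred log2 CPM over the 6 libraries. Cxcr4, the receptor for CXCL12, stood at 13.7, 8.51 and 13.9 CPM in HDAC1-cKO and 14.8, 17.4 and 15.8 CPM in WT, with no overlap but a narrow gap, and the log2 difference was -0.42 ± 0.22 (SE, edgeR adjusted p = 0.405), or -0.22 without HDAC1-cKO replicate 2. Cxcr5, the receptor for CXCL13 on follicular helper T cells and B cells, stood at 40.7, 137 and 54.6 CPM in HDAC1-cKO and 87.6, 101 and 65.3 CPM in WT. As with Ccr6, HDAC1-cKO replicate 2 was the highest and the other HDAC1-cKO libraries were the lowest of all. Its log2 fold change was -0.13 ± 0.41 (SE, edgeR adjusted p = 0.918), and -0.84 without that library (edgeR adjusted p = 0.0793). The exons of Bcl9l on the other strand cover 3.30% of the exon bases of Cxcr5, so some of its reads may not be its own.

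B cells also carry Ccr6, Ccr7 and Cxcr5. The summed B cell markers were highest in HDAC1-cKO replicate 2, the library in which these 3 receptors were highest too. Their part in the levels of these receptors was not tested.

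**Figure D2:**
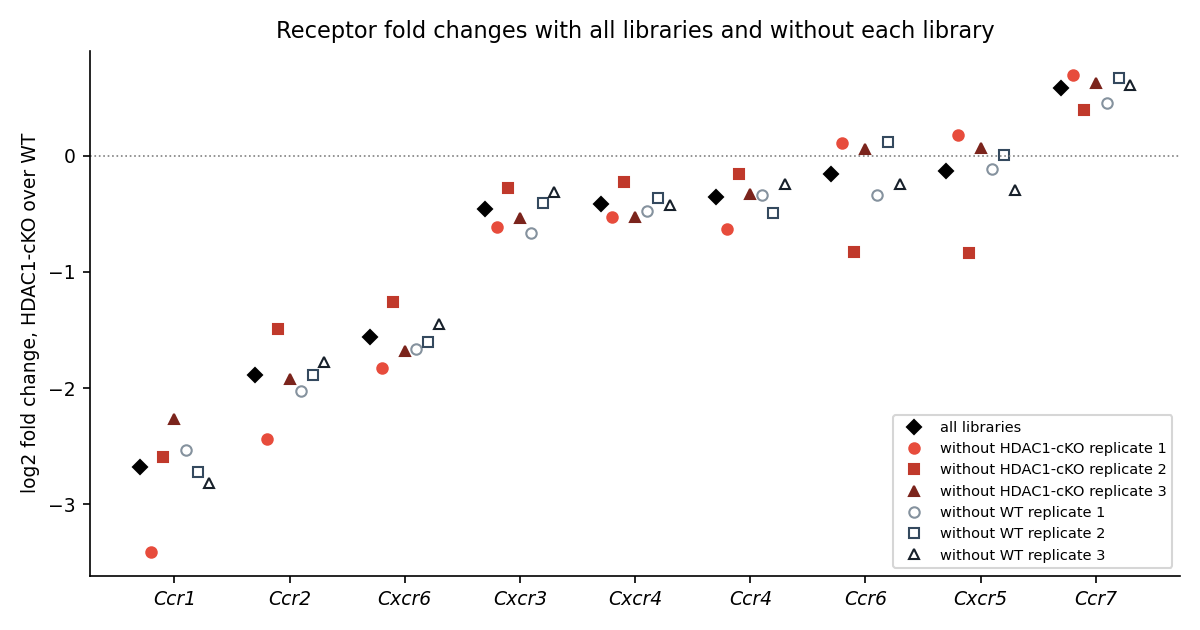
Log2 fold change of each receptor, HDAC1-cKO over WT, with all libraries (black diamonds) and without each library in turn (filled red symbols leave out an HDAC1-cKO library, open symbols a WT library). Ccr1, Ccr2, Cxcr6, Cxcr3, Cxcr4 and Ccr4 stay below 0 and Ccr7 above 0 in all 6 reduced fits, while Ccr6 and Cxcr5 lie on either side of 0 and drop to -0.83 and -0.84 without HDAC1-cKO replicate 2.

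Set against Ccr7 within each library, 5 of the 6 effector-homing receptors had a lower ratio in every HDAC1-cKO library than in any WT library. These were Ccr1, Ccr2, Ccr6, Cxcr3 and Cxcr6. The ratio is that of FPKM with 0.1 added to both, on the log2 scale, so that the scaling of a library nearly cancels. All ratios share Ccr7, which was itself higher in HDAC1-cKO, and the ratio to Ccr7 was lower without overlap for 44.7% of 15518 genes and higher for 1.20%, so that the count of receptors has to be read against that share. With 3 libraries against 3 the exact permutation test cannot give a two-sided p below 0.1, and each of these 5 receptors reached p = 0.1.

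The largest ratio differences were those of Ccr1, Ccr2 and Cxcr6. The log2 ratio of Cxcr6 to Ccr7 was 2.58, 0.63 and 2.21 in HDAC1-cKO replicates 1, 2 and 3, against 4.11, 3.81 and 4.21 in WT, a difference of -2.24. On the linear scale Cxcr6 was 1.54 to 5.98 times Ccr7 in HDAC1-cKO and 14.1 to 18.5 times Ccr7 in WT. The log2 ratio of Ccr2 to Ccr7 was -1.34, -4.10 and -2.15 in HDAC1-cKO and 0.13, 0.02 and 0.32 in WT, so that Ccr2 was below Ccr7 in each HDAC1-cKO library and above it in each WT library. The Ccr1 ratio averaged -5.83 ± 1.25 in HDAC1-cKO and -2.43 ± 0.47 in WT (SD, n = 3 each).

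The other ratios differed less. For Cxcr3 the log2 ratio to Ccr7 averaged 1.36 ± 0.70 in HDAC1-cKO and 2.39 ± 0.22 in WT, a difference of -1.03, and for Ccr6 it averaged 0.07 ± 0.55 in HDAC1-cKO and 0.93 ± 0.27 in WT, a difference of -0.86 (SD, n = 3 each). The linear Ccr6 ratio reached 1.64 in HDAC1-cKO replicate 2, and the lowest WT ratio was 1.67, so this gap was small. Ccr4 overlapped, with a difference of -0.96 and an exact permutation p = 0.2 (3 libraries per genotype). Of the remaining receptors, Cxcr4 separated with a difference of -1.01 and Cxcr5 overlapped with one of -0.88 (exact permutation p = 0.1 and 0.2, two-sided). Without HDAC1-cKO replicate 2 the differences were -1.65 for Cxcr6, -1.90 for Ccr2, -3.32 for Ccr1, -0.64 for Cxcr3, -1.18 for Ccr6, -0.56 for Ccr4, -0.62 for Cxcr4 and -1.23 for Cxcr5.

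**Figure D3:**
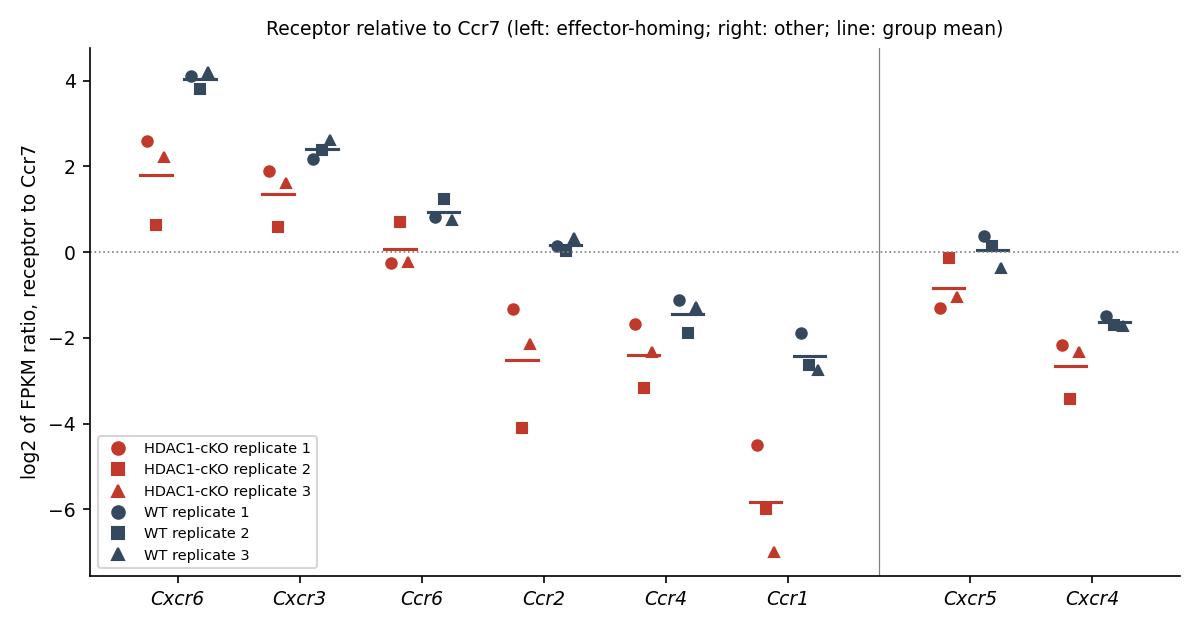
Log2 of the FPKM ratio of each receptor to Ccr7 in each library, with the 6 effector-homing receptors left of the vertical line and Cxcr5 and Cxcr4 right of it. Points are single libraries, HDAC1-cKO in red to the left of WT in dark blue, lines are group means, and the dotted line at 0 marks a level equal to Ccr7. Cxcr6 falls between 0.63 and 2.58 in HDAC1-cKO and between 3.81 and 4.21 in WT, and Ccr2 lies below the dotted line in HDAC1-cKO and above it in WT.

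Position played no part in choosing the 9 receptors, but the chromosome 9 region was picked with the values of Ccr1, Ccr2 and Cxcr6 in view. It was described over the stretch from 500 kb before Cxcr6 to 500 kb after Ccr2. It holds 36 genes of the table, of which 16 were tested, 13 had a negative log2 fold change (50.3% of all genes did) and 1 passed the threshold (1.97% of all genes), Fyco1. Fyco1 encodes an adaptor of vesicle transport, and Cxcr6 lies inside it on the opposite strand without sharing exon bases. It fell to 6.56, 7.92 and 5.78 CPM in HDAC1-cKO, against 13.4, 14.2 and 14.9 CPM in WT, which is -1.07 ± 0.19 in log2 units (SE, edgeR adjusted p = 0.0369). This call also held without HDAC1-cKO replicate 2 and ended without any 1 other library (edgeR adjusted p up to 0.145). The Fyco1 call also ended with limma on log2(FPKM + 1) and log2(FPKM + 0.1) (adjusted p = 0.0557 and 0.0717). With the replicate number as a block it ended too (edgeR adjusted p = 0.0909). The library kit does not mark strand, and whether unspliced Fyco1 RNA adds reads to Cxcr6 was not tested.

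The other chemokine receptor genes named here in the region had no member past the threshold. Xcr1, the receptor for XCL1 on cross-presenting dendritic cells, stood at 4.78, 1.55 and 4.46 CPM in HDAC1-cKO and 11.3, 10.8 and 9.64 CPM in WT, with no overlap and a difference of -1.57 ± 0.39 in log2 CPM (SE, edgeR adjusted p = 0.0869). Ccr3, next to Ccr1, differed by -0.45 ± 0.59 and stood at 1.18 ± 0.723 CPM in HDAC1-cKO, against 1.59 ± 0.584 CPM in WT. Ccr1l1 and Ccr9 had under 1 CPM in every library and were not tested. In the flanks, Lars2, Limd1, Sacm1l, Lztfl1, 2010315B03Rik, Ppp2r3d, the lincRNA gene Gm39469 and the pseudogenes Scp2-ps2 and Gm10052 differed by -0.39 to 0.13 on the log2 scale, and the CPM of the genotypes overlapped for all of them. Leaving out Cxcr6, Ccr1 and Ccr2, around which the region was drawn, 10 of 13 tested genes had a negative log2 fold change and the median was -0.19.

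**Figure D4:**
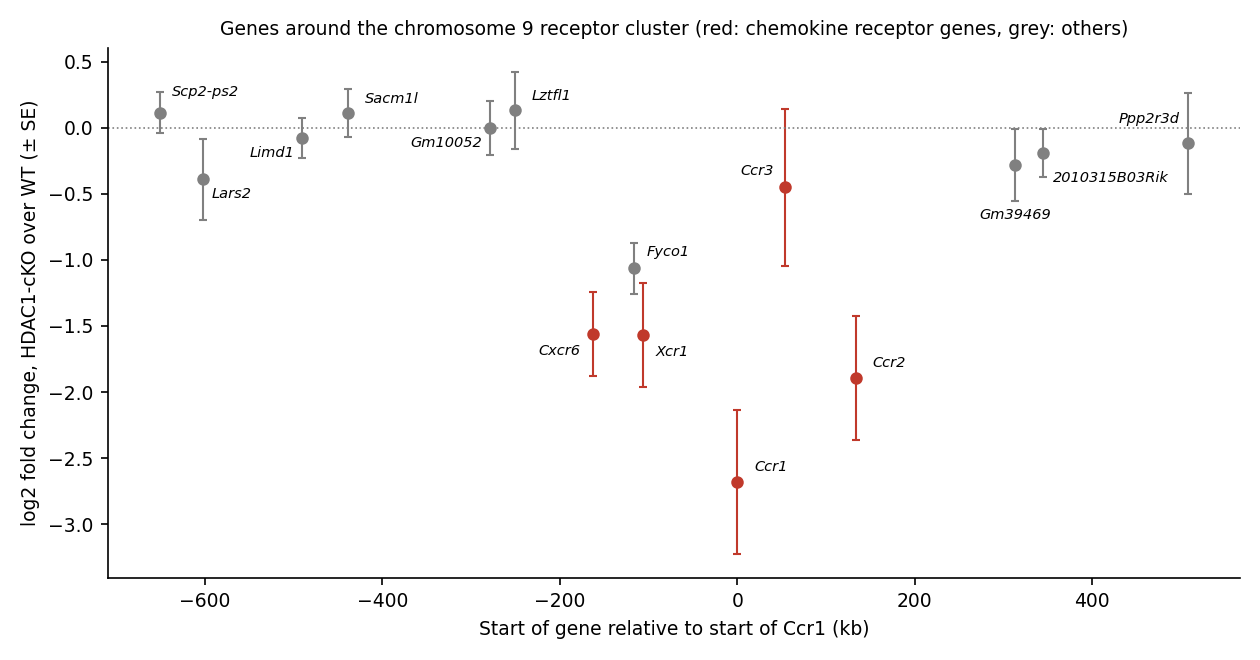
Log2 fold change, HDAC1-cKO over WT, with its standard error, of tested genes around the chromosome 9 receptor cluster, against the distance of the gene's start from the start of Ccr1 in kb. Chemokine receptor genes are red and other genes grey. Fyco1, Cxcr6, Xcr1, Ccr1 and Ccr2 lie between -2.68 and -1.07, Ccr3 at -0.45, and the flanking genes between -0.39 and 0.13.

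The rest of the chemokine pathway was described with 6 lists, of whose 110 listed genes 71 were tested, 0 passed the threshold higher and 3 passed it lower in HDAC1-cKO (edgeR, 1.97% of all genes in either direction and 0.992% lower). Of 14 other chemokine receptors 6 were tested and 0 passed. All 6 were negative on the log2 scale (50.3% of all genes were), with a median of -0.61, against -0.002 over all genes. The lowest p among these belonged to Xcr1 and to Ccr8, a receptor of regulatory and Th2 cells for CCL1, which stood at 20.2, 28.8 and 23.3 CPM in HDAC1-cKO and 53.3, 31.5 and 26.2 CPM in WT. These ranges overlapped.

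Most ligand genes did not pass the filter on low counts. Of 31 ligands 8 were tested and 1 passed, Ccl1, the ligand of CCR8, which fell to 0.0613, 0.268 and 0.0490 CPM in HDAC1-cKO, against 2.58, 1.56 and 7.16 CPM in WT (edgeR adjusted p = 0.0336). The call held without HDAC1-cKO replicate 2 and ended without any 1 other library (edgeR adjusted p up to 0.135) and with limma-voom (adjusted p = 0.0613). With the replicate number as a block it ended too (edgeR adjusted p = 0.0806). Ccl8, with the next lowest p, stood at 0.245, 0.0535 and 0.0490 CPM in HDAC1-cKO and 0.722, 1.64 and 1.16 CPM in WT (edgeR adjusted p = 0.0721). Both ligands lay near the floor of the counts in HDAC1-cKO, and WT replicate 3 held the most Ccl1. They met the filter on low counts only through their WT levels, so a call on them could only be lower in HDAC1-cKO. This also holds for the part of Ccl1 in the count of lower pathway genes. The list's median log2 fold change was -0.18.

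Genes that carry the signal from the receptor to the cytoskeleton had no member past the threshold. Among 17 tested G protein subunits, receptor kinases, arrestins and RGS proteins 10 had a negative fold change (50.3% of all genes did) and the median was -0.07. Without overlap 3 of them were lower and 2 higher in HDAC1-cKO (11.8% and 12.7% of all genes). Gng2, a G protein gamma subunit, differed by -0.46 ± 0.11, and Rgs14, which speeds the shutdown of inhibitory G proteins, by -0.53 ± 0.17 in log2 units (SE, edgeR adjusted p = 0.0844 and 0.148). Among 19 tested genes of migration signalling 17 had a negative fold change (50.3% of all genes did), with a median of -0.27. Of these genes 10 did not overlap between genotypes, all lower in HDAC1-cKO (11.8% of all genes). Pik3r5, a regulatory subunit of the PI3-kinase that G proteins activate, differed by -0.90 ± 0.24, and the kinase gene Ptk2b by -0.54 ± 0.15 (SE, edgeR adjusted p = 0.0995 and 0.121).

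Among the other genes of lymph node homing and egress none passed higher. The log2 fold change was negative for 6 of 7 tested (50.3% of all genes) and the list's median was -0.47. The gene S1pr4, a receptor for sphingosine 1-phosphate and 1 of the 7, fell to 201, 202 and 196 CPM in HDAC1-cKO, against 261, 354 and 366 CPM in WT (log2 difference -0.71 ± 0.14, SE, edgeR adjusted p = 0.0476). That call held when either HDAC1-cKO replicate 2 or WT replicate 1 was left out and ended without any 1 of the other 4 libraries (edgeR adjusted p up to 0.184). With the replicate number as a block it ended too (edgeR adjusted p = 0.0905). S1pr1, the receptor that leads T cells out of the node, differed by -0.47 ± 0.15 (SE, edgeR adjusted p = 0.161).

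Of 14 tested transcription regulators of helper lineages 1 passed, Id2, with 494, 350 and 494 CPM in HDAC1-cKO against 1038, 867 and 910 CPM in WT (log2 difference -1.07 ± 0.15, SE, edgeR adjusted p = 0.0240). The call held without HDAC1-cKO replicate 2 and ended without any 1 other library (edgeR adjusted p up to 0.104). Stat4, which relays IL-12 signals, differed by -0.60 ± 0.15 (SE, edgeR adjusted p = 0.0869). The median of this list was -0.25. Without overlap 7 genes were lower and 1 was higher in HDAC1-cKO (11.8% and 12.7% of all genes).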

How the data were processed

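Polyadenylated RNA of 500 sorted cells per library was amplified by Smart-seq2 and sequenced as single reads, per the labels' protocols. The authors deposited whole-number counts per gene and FPKM for 55536 genes and 6 libraries; 55450 genes have the coordinates of GENCODE M21 (GRCm38). Per the submitters' processing notes, the tools included STAR 2.5.2b and DESeq2 1.24.0; for strand and multimapping reads the sources used here give no setting. Across 10896 genes with at least 50 reads per library the deposited FPKM were the count divided by DESeq2's size factor times 1 constant per gene.

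Genes kept by filterByExpr (15519, at least 99.92% of each library's counts) entered edgeR 4.0.16 with TMM factors in R 4.3.3 (quasi-likelihood, robust, two-sided, genotype only). CPM use TMM-scaled totals; SEs derive from the fold change and its F. Reads carry no molecular identifiers. Every pair of libraries differed beyond counting error (chi-square over its degrees of freedom 12 to 150). Tests were tried on simulated data. Alternatives used DESeq2 1.42.0, limma 3.58.1, other filters and scalings, GC offsets (spline with 4 degrees of freedom) and each library left out; GC offsets together with leaving out HDAC1-cKO replicate 2 were added after seeing the data. Figures used matplotlib 3.10.9.

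The receptors and gene lists were chosen with earlier results of these data known. Named were the 9 receptors; in the cluster region the chemokine receptor genes and other genes of at least 1 CPM; up to 4 called genes per list, or the 2 of lowest p; the 3 profiles most like Cxcr6 and Ccr7; and Hdac1. The T cell markers lower in HDAC1-cKO and the myeloid and dendritic cell markers Lyz2, H2-Ab1 and Cd74 were named after their values were seen. Some genes that the lists or this rule hold are not reported here by name; they are part of the counts and medians.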

Additional observations from a re-analysis of the deposited data

How the results depend on the processing

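Over 17 alternatives the log2 fold changes of Ccr1, Ccr2, Ccr4, Cxcr3, Cxcr4 and Cxcr6 stayed negative and that of Ccr7 positive, while Ccr6 and Cxcr5 turned positive in 3 each. Leaving out 1 library, Ccr6 ran from -0.83 to 0.12 and Cxcr5 from -0.84 to 0.18. From 0 lower receptors with all libraries, 2 passed without a filter, without robust estimation, with thinned counts and on log2(FPKM + 0.1), and 3 passed with a filter of 10 CPM, DESeq2, limma-voom, GC offsets and log2(FPKM + 1), the 3 being Ccr1, Ccr2 and Cxcr6 each time. Ccr1, and Fyco1 in the chromosome 9 region, met the 10 CPM filter only through WT libraries. DESeq2 also passed 1 higher receptor, Ccr7. Without 1 library the lower receptors numbered 0 to 2, with 2 only without HDAC1-cKO replicate 2, also with GC offsets. Over all genes 306 were called, against 1363 by DESeq2, 1589 by limma-voom, 505 with GC offsets, 678 with GC offsets and without HDAC1-cKO replicate 2, and 26 to 626 without 1 library. Calls in the pathway lists numbered 3, against 14, 21, 7 and 12 under the same settings, 5 on log2(FPKM + 1) and 0 to 10 without 1 library. In the chromosome 9 region 1 gene was called, against 5 by DESeq2, limma-voom and with GC offsets, 4 with the 10 CPM filter, on log2(FPKM + 1) and with GC offsets without HDAC1-cKO replicate 2, 3 without a filter, without robust estimation and with thinned counts, 2 on log2(FPKM + 0.1), and 0 to 4 without 1 library. The cause of these changes was not tested. The count of effector receptors below the WT ratio to Ccr7 was 5 with all libraries, where 44.7% of all genes were lower without overlap. It stayed at 5 with other pseudocounts or a filter on FPKM. Without 1 library it was 5 or 6, but leaving out a library cannot lower this count. Deviations of same-numbered libraries correlated at 0.20, 0.02 and -0.13 across genes, and those of other pairs at -0.18 to 0.20. Since these ranges are alike, they cannot decide whether the replicate numbers pair the samples. With the replicate number as a block 65 genes were called, 1 in the pathway lists, 0 in the chromosome 9 region and 0 receptors.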
